A study of Homo sapiens with 7 samples.

Results

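The genes described here encode 10 secreted inhibitors of WNT signalling: DKK1, DKK2, DKK3, SFRP1, SFRP2, SFRP4, SFRP5, FRZB, WIF1 and CER1. They were chosen by name, and each was followed as the CpG sites inside a stretch of the hg19 genome that holds the gene and its flanks. A CpG was used when it had 10 or more reads in all 7 libraries. In the 10 stretches, 544 CpGs met this, of 1734462 in the genome (0.0314%), and 9 of the 10 genes had at least 14 of them. CER1 had no listed CpG in its stretch. The data are enhanced reduced representation bisulfite sequencing (ERRBS), which reads CpG-rich DNA after a chemical treatment that turns unmethylated cytosine into T. The methylation level is the percent of reads that kept C, and methylated cytosine is not told apart from oxidised forms that also keep C.

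All libraries came from HUES8, a human embryonic stem cell line that is well established, unaltered (WT) or lacking TET1, TET2 and TET3 by a triple knockout (TKO). The stages are stem cells on day 0 (SC), cardiac mesoderm on day 3 (CME), cardiac progenitors on day 8 (CP) and, in WT alone, beating cardiomyocytes on day 14 (CM), with 1 library for each genotype and stage. The series text says that TKO cells made no beating cardiomyocytes. Both genotypes followed 1 protocol, with 6 µM CHIR99021, which activates WNT signalling, until day 2, and 5 µM IWP2, which blocks WNT secretion, from day 3 to day 5. The CP and CM cells were thus taken after both agents and the CME cells after CHIR99021, on the day of IWP2 addition. Cells kept beyond CP also passed through a lactate medium without glucose that enriches cardiomyocytes. The WT CM library is given day 15 in its description and the CME stage in its source label, so its stage rests on its title. The sources used here do not say how the knockout was made or whether the TKO line is a single clone. Methylation calls carry no allele or RNA level, so the knockout and the labelled cell types were not checked against target or marker genes.

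WNT proteins signal through Frizzled receptors and the co-receptors LRP5 and LRP6, which stabilises β-catenin. SFRP1, SFRP2, SFRP4, SFRP5 and FRZB carry a Frizzled-like domain and bind WNT proteins outside the cell, as WIF1 does through a domain of its own. DKK1 and DKK2 bind LRP5 and LRP6 and can act with Kremen proteins, whereas DKK3 is a divergent family member without that established role, and CER1 binds Nodal and BMP proteins as well as WNT. WNT activity is needed to form mesoderm from stem cells and must then be limited for cardiac cells to form, and the promoters of several of these inhibitors are known for becoming methylated in tumours. TET enzymes oxidise methylated cytosine, a step towards its removal.

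The 250 bases before the start are printed for the 4 genes whose RefSeq promoter sequence could be matched to the CpG positions in the files, and for CER1, since they show which CpGs the measurements reach. The first 4 are on hg19, at chr10:54073791-54074040 (plus strand) for DKK1, chr10:99531757-99532006 (minus strand) for SFRP5, chr12:65515086-65515335 (minus strand) for WIF1 and chr2:183731366-183731615 (minus strand) for FRZB. Sequences are from the RefSeq table of GRCh38.p14, 5′ to 3′ along the gene, and capitals mark the CpGs with 10 or more reads in all 7 libraries.
DKK1: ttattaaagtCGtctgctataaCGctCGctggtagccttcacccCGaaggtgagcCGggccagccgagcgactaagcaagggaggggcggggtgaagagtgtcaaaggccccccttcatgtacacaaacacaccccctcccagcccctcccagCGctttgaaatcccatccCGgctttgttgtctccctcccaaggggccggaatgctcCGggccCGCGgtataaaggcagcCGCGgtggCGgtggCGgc
SFRP5: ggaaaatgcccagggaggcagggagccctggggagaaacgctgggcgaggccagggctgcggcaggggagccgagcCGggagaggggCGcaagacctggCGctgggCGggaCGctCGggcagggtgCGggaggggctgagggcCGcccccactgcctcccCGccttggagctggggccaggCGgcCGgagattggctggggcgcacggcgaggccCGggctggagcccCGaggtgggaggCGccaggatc
WIF1: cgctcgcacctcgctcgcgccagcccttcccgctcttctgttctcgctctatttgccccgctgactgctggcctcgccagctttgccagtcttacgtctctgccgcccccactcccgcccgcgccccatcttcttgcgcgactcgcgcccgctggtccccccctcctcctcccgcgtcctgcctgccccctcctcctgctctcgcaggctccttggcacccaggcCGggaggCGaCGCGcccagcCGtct
FRZB: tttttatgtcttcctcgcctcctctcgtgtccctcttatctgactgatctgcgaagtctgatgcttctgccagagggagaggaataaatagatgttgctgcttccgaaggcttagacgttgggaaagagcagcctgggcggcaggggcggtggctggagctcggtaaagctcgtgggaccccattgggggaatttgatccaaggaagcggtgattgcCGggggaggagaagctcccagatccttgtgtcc
In CER1, which has no position here, capitals mark all 3 CpGs, none of them measured.
CER1: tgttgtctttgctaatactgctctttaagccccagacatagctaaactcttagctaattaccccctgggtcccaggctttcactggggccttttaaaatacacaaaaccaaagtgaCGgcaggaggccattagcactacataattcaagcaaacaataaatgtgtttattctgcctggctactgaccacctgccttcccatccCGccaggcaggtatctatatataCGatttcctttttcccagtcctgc

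The measured part of these promoters is uneven. In DKK1, 14 of the 18 CpGs shown were read in all libraries, in SFRP5 14 of 21, in WIF1 5 of 27 and in FRZB 1 of 11. Over 300 bases (250 before and 50 after the start), WIF1 held 29 CpGs, SFRP5 28, SFRP4 23, DKK1 20, FRZB 17 and SFRP2 15, and CER1 held 3, more than only 18.2% of the 35116 promoters in the table. CCGG, the site of an enzyme commonly used for this kind of library, was searched in the same windows and reads alike on both strands. It occurred 4 times in DKK1, 3 times in SFRP5, 2 times each in SFRP2 and SFRP4, 1 time each in WIF1 and FRZB and not in the CER1 window, while 63.1% of all promoters held it.

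Over the CpGs shared by all libraries median coverage ran from 45 reads (WT SC) to 94 (TKO CME). No group has a replicate. Fisher's exact test and the z test below compare single libraries and cover counting error only. The genotype plus stage fit with limma alone uses spread between libraries, which there is how the genotype difference varies between stages. Stages are not replicate cultures, so its p-values do not cover spread between cultures. Since 1 read can cover neighbouring CpGs and be a PCR copy of another, p-values and intervals can be too small. WT SC and WT CME carry an ending in their descriptions (BS) that the other 5 libraries lack. Mitochondrial CpGs kept C in 1.46% of reads in WT SC and 1.44% in WT CME, against 0.139% to 0.387% in the other 5. Levels of about 1% in WT SC and WT CME therefore lie near this share of possibly unconverted cytosine, which was not subtracted. TKO CP and WT CP both lack the ending, so their comparison is free of that difference, while at SC and CME it cannot be told apart from genotype. The genotype plus stage fit includes SC and CME and shares this limit.

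Promoters were taken as 1.5 kb on each side of the start. The start could be placed on hg19 from CpG spacing for DKK1, SFRP5, WIF1 and FRZB. The CpGs matched were 20 of 20 in DKK1, 23 of 28 in SFRP5, 6 of 29 in WIF1 and 5 of 17 in FRZB, so the starts of WIF1 and FRZB are less sure. For the other 5 genes with CpGs the start is known to the nearest kb from general knowledge, unchecked against an annotation. Exons and introns were not assigned, since no hg19 annotation was used here. All 9 promoters were poorly methylated in WT cells, at most 21.7% (WIF1 in WT CME) and under 7% in the other 8 genes. The levels of TKO CP lay above those of WT CP by 0.278 points (DKK3) to 20.7 points (WIF1). None of these differences reached the size used for a call, which was 25 percentage points with an adjusted p under 0.01 (Fisher's exact test, two-sided, Benjamini-Hochberg over 11500 promoters). Among all promoters, 3.64% were called higher in TKO at SC, 3.55% at CME and 5.43% at CP, and 0 of the 9 members were at each stage. The median difference at CP was 7.41 points over the 9 members and 0.671 over all promoters. A level higher in TKO CP was thus common among all promoters too, and its share was not counted.

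Of the proteins that bind WNT directly, SFRP1 and SFRP2 had promoters that did not pass 5% in any library. The SFRP1 promoter (93 CpGs, chromosome 8) stood at 1.19% (SC), 1.03% (CME), 0.144% (CP) and 0.278% (CM) in WT, and at 1.64% (SC), 1.73% (CME) and 2.15% (CP) in TKO. The SFRP2 promoter (50 CpGs, chromosome 4) stood at 1.62% (SC), 1.67% (CME), 2.05% (CP) and 0.853% (CM) in WT, and at 0.734% (SC), 1.07% (CME) and 4.29% (CP) in TKO. SFRP5 (53 CpGs, chromosome 10) stood at 1.72% (SC), 2.22% (CME), 0.308% (CP) and 0.390% (CM) in WT, and at 2.02% (SC), 3.01% (CME) and 6.03% (CP) in TKO. Its WT levels were lower in the later 2 libraries, as was the mitochondrial share of C (1.46% in WT SC and 0.219% in WT CP), whose part in this was not tested. The TKO level of SFRP5 was highest at CP, 5.72 points above WT CP. That difference was 2.14 points on plus strand reads and 7.63 on minus strand reads. SFRP4 (38 CpGs, chromosome 7) stood at 5.62% (SC), 6.08% (CME), 3.74% (CP) and 4.26% (CM) in WT, and at 11.6% (SC), 14.9% (CME) and 14.4% (CP) in TKO, with each TKO library above each WT library. How many of all promoters have that order was not counted. The SFRP4 difference at CP was 10.6 points, and 6.96 with 20 reads per CpG. FRZB, the SFRP family member first described in cartilage (14 CpGs, chromosome 2), stood at 2.84% (SC), 3.51% (CME), 0.409% (CP) and 0.721% (CM) in WT, and at 3.21% (SC), 5.61% (CME) and 12.4% (CP) in TKO. The genotypes thus differed by 0.367 points at SC and 12.0 points at CP, and the z test of that change gave an adjusted p = 5.02e-24 for 11.7 points, under the size for a call. The FRZB difference at SC was -0.484 on plus strand reads and 2.18 with each CpG weighted equally. At CP it was 19.02 within 0.5 kb of the start.

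In SFRP5 and FRZB the methylation of TKO CP lay mostly in a few CpGs close to the start. At the 14 marked CpGs of the SFRP5 sequence the level was 3.68% in WT SC, 0.391% in WT CP, 5.60% in TKO SC and 16.1% in TKO CP. The 4 CpGs there that were over 25% in TKO CP lay 64, 134, 162 and 173 bases before the start, at 35.3%, 32.1%, 29.3% and 48.5%, and in WT CP they were between 0 and 1.36%. The single marked CpG of FRZB kept C in 24.5% of 102 reads in TKO CP and in 0 of 112 reads in WT CP (95% Wilson upper limit 3.32%, where 3 reads would make 2.68%). Within FRZB, the 9 CpGs around the start stood at 19.4% in TKO CP, and the 5 CpGs 0.6 kb upstream at 1.09%.

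WIF1, which binds WNT through its WIF domain, had the highest promoter level of the 9 genes in the 4 WT libraries and in TKO CP (42 CpGs, chromosome 12). In TKO SC and TKO CME the level of DKK2 was above it, by less than 0.1 points at CME. It stood at 21.1% (SC), 21.7% (CME), 9.30% (CP) and 9.90% (CM) in WT, and at 14.6% (SC), 17.7% (CME) and 30.0% (CP) in TKO. The TKO minus WT difference was -6.53 points at SC and 20.7 points at CP, and this change of 27.2 points was called (z test on reads, adjusted p = 5.86e-101), as it was for 1.66% of all promoters. The value depends on how CpGs are weighted. With each CpG weighted equally the promoter stood at 18.4% in WT SC, 17.2% in WT CP, 25.9% in TKO SC and 37.1% in TKO CP. The difference was then 7.49 points at SC and 19.9 at CP, so the sign at SC turned and the change of 12.4 points was not called.

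The WIF1 promoter is made up of 3 groups of CpGs that differ in level. The 7 CpGs about 0.9 kb upstream, from 65515935, stood between 89.7% and 93.8% in all 7 libraries, and they held 20.5% of the reads in WT SC, 9.19% in WT CP, 5.80% in TKO SC and 9.69% in TKO CP. The 15 CpGs about 0.4 kb upstream, from 65515394, stood at 5.06% (SC), 7.45% (CME), 2.38% (CP) and 2.54% (CM) in WT, and at 20.8% (SC), 21.4% (CME) and 25.8% (CP) in TKO. The 20 CpGs at the start, from 65514887, stood at 2.50% (SC), 3.73% (CME), 0.492% (CP) and 0.561% (CM) in WT, and at 4.74% (SC), 6.98% (CME) and 21.9% (CP) in TKO. So the upstream group was methylated in every library, the middle group was higher in each TKO library than in each WT library, and the group at the start stood apart in TKO CP, 21.4 points above WT CP and below the size for a call. How many of all runs have the order of the middle group was not counted. The 5 marked CpGs of the WIF1 sequence belong to the group at the start and stood at 0.268% in WT CP and 22.7% in TKO CP.

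**Figure D1:**
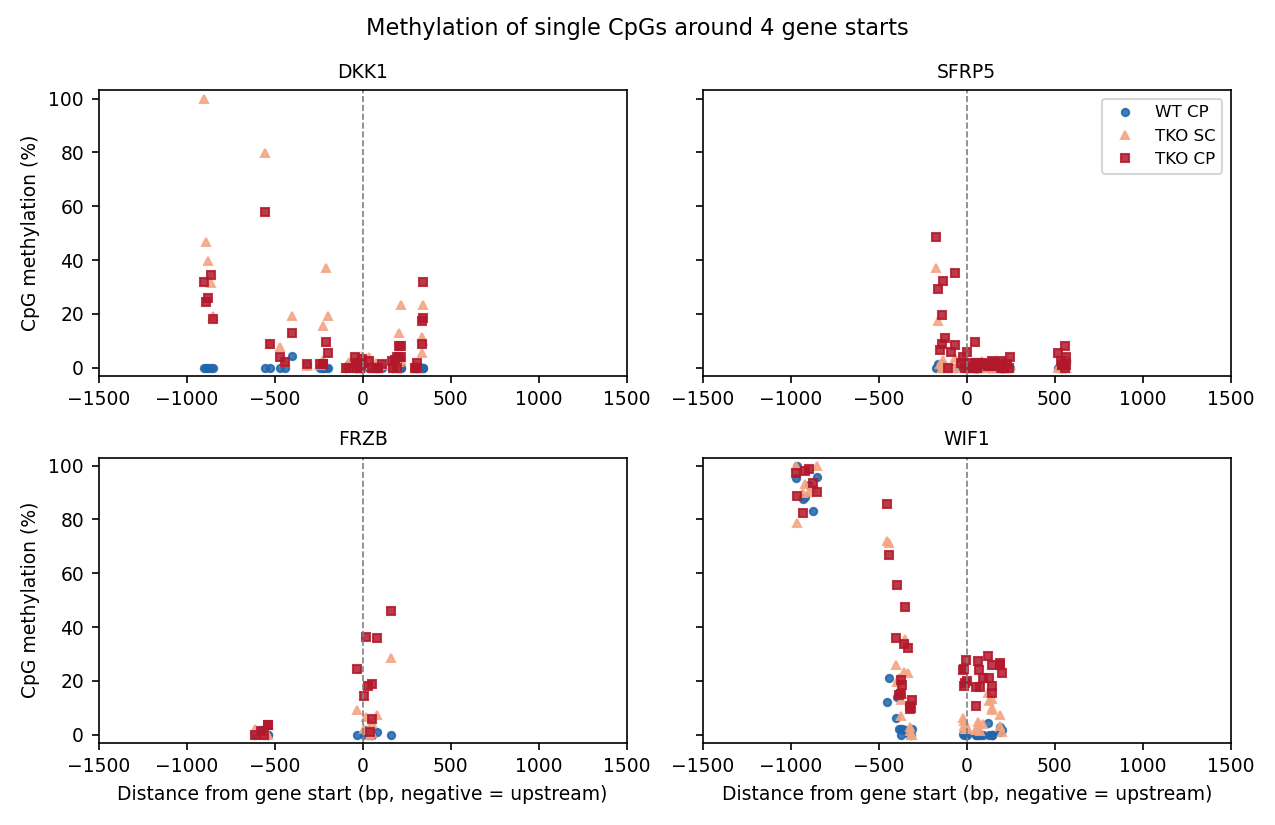
Methylation level of single CpGs (percent of reads, vertical axis) against distance from the start in bases (horizontal axis, negative is upstream, dashed line at the start) for DKK1, SFRP5, FRZB and WIF1, with circles for WT CP, triangles for TKO SC and squares for TKO CP. Nearly all WT CP points lie close to 0 except the group about 0.9 kb upstream of WIF1. The TKO CP squares rise off the axis at the start of WIF1 and FRZB and before the start of SFRP5. They also do so about 0.9 kb upstream of DKK1 and about 0.4 kb upstream of WIF1.

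Among the inhibitors that bind LRP5 and LRP6, DKK1 and DKK2 had higher promoter levels in each TKO library than in any WT library, by less than 25 points. The share of all promoters with that order of libraries was not counted, so it is a description only. The DKK1 promoter (49 CpGs, chromosome 10) stood at 2.54% (SC), 2.00% (CME), 0.142% (CP) and 0.197% (CM) in WT, and at 9.68% (SC), 7.12% (CME) and 7.55% (CP) in TKO. The DKK2 promoter (9 CpGs, chromosome 4) stood at 4.95% (SC), 4.27% (CME), 0.671% (CP) and 0.623% (CM) in WT, and at 16.5% (SC), 17.8% (CME) and 15.5% (CP) in TKO. The difference at CP was 7.41 points for DKK1 (adjusted p = 2.69e-86, Fisher's exact test) and 14.8 points for DKK2 (adjusted p = 2.67e-30). Within 0.5 kb of the start the DKK1 difference was 4.14 points at SC, 2.24 at CME and 3.09 at CP, against 7.13, 5.12 and 7.41 over the whole promoter. In both, the change of the TKO minus WT difference from SC to CP was not called, at 0.273 points (adjusted p = 0.695, z test) and 3.21 points (adjusted p = 0.116). The 14 marked CpGs of the DKK1 sequence stood at 8.29% in TKO SC and 1.92% in TKO CP. DKK3 differed from both in its promoter. Its 44 CpGs (chromosome 11) stood at 1.25% (SC), 0.986% (CME), 0.105% (CP) and 0.200% (CM) in WT, and at 0.287% (SC), 0.515% (CME) and 0.383% (CP) in TKO, so the level summed over reads did not pass 1.3% in any library.

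**Figure D2:**
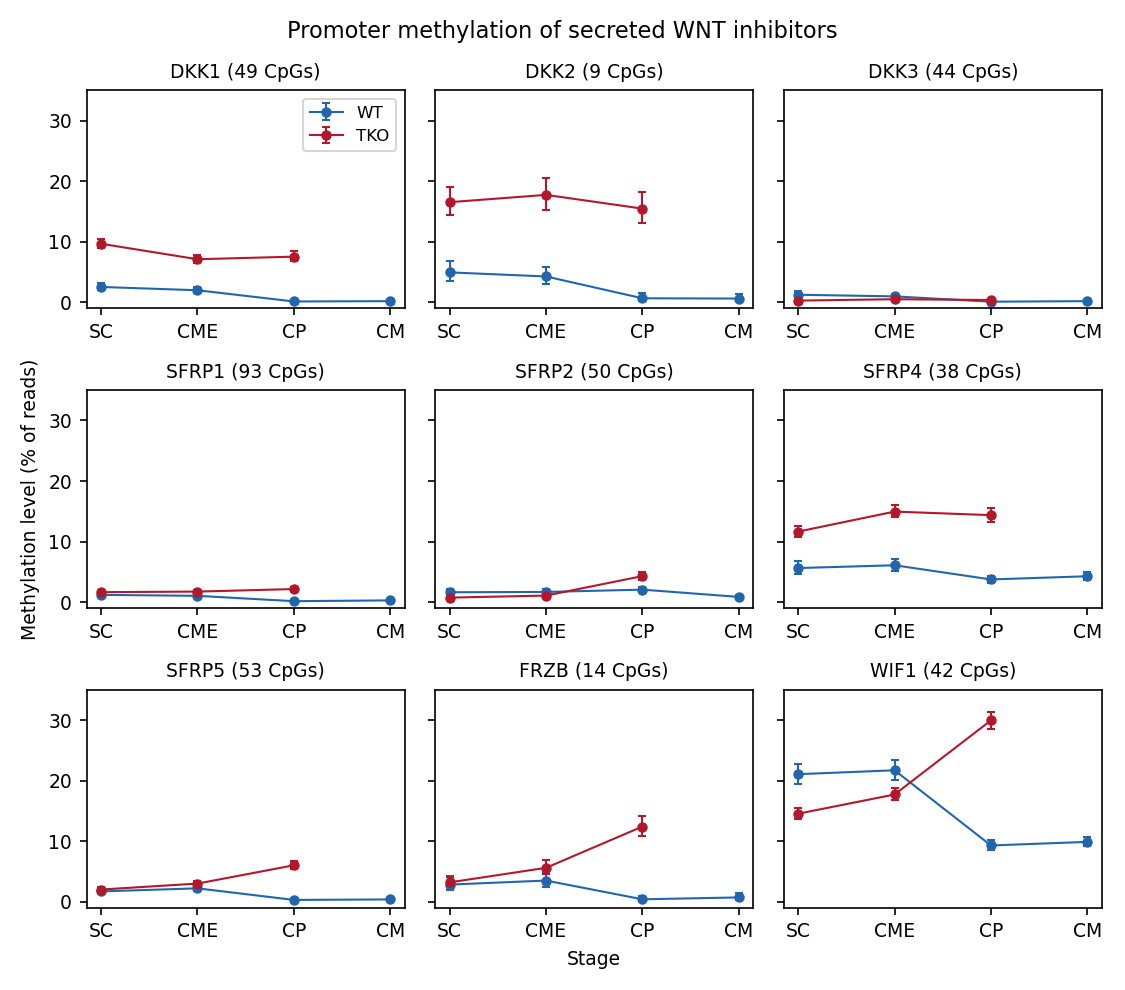
Promoter methylation level (percent of reads, vertical axis, 0 to 35%) of 9 inhibitors at each stage (horizontal axis) in WT (blue) and TKO (red). Points are single libraries and bars are 95% Wilson intervals of the reads. In DKK1, DKK2 and SFRP4 TKO lies above WT at all 3 stages with the intervals apart. SFRP1, SFRP2, SFRP5, FRZB and WIF1 are highest in TKO CP, and DKK3, SFRP1 and SFRP2 stay under 5%.

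Few larger stretches of these genes differed. Tiles of 1 kb that hold at least 5 CpGs were compared first, of which 22 lay in the members, by the same call rule over 85087 tiles. In TKO SC 1 of the 22 was called higher than in WT SC, as were 6.26% of all tiles, and in TKO CME 1 was, as were 6.02% of all. In TKO CP 2 were called higher than in WT CP, against 12.0% of all. None was lower in TKO, as were 0.119%, 0.0846% and 0.0458% of all tiles at SC, CME and CP. As shares of 22 tiles, these counts are near or below the shares of all tiles. The median tile difference was 0.0283 points at SC, 0.717 at CME and 5.47 at CP in the members, and -0.929, -1.04 and 1.30 over all tiles.

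The tile higher in TKO at all 3 stages lies within 1 kb of the start of SFRP4, whose product binds WNT and is also known from phosphate metabolism. Its 5 CpGs, from 37955653 to 37955699 on chromosome 7, stood at 43.2% (SC), 42.5% (CME), 28.0% (CP) and 36% (CM) in WT, and at 77.1% (SC), 72.5% (CME) and 68.7% (CP) in TKO. The WT levels were intermediate and every TKO level was higher than every WT level. How many of all tiles have that order was not counted. The reads behind these levels, summed over CpGs, ran from 70 in TKO SC to 304 in WT CP. Each CpG had 13 to 16 reads in TKO SC and 16 to 22 in WT SC. The CpGs are close enough for 1 read to cover all 5, so the p-values below can be far too small. The differences were 34.0 points at SC (adjusted p = 8.22e-05, Fisher's exact test), 30.1 at CME (adjusted p = 5.24e-07) and 40.8 at CP (adjusted p = 5.17e-23). A linear model of genotype plus stage was fitted over the 6 libraries of SC, CME and CP (limma). It sets the genotype against the variation of its difference between stages, with 2 residual degrees of freedom, and the stages are not replicate cultures. There the SFRP4 tile was the only one of the 22 called higher (mean difference 34.9 points, adjusted p = 0.00118, limma), where 6.04% of all tiles were. The 5 CpGs were not alike. In stem cells the CpG at 37955653 was at 58.8% in WT (17 reads) and 25% in TKO (16 reads), and that at 37955699 at 9.09% and 100%. Another 15 CpGs from 37956042, also within 1 kb of the start, stood between 2.70% and 4.72% in WT and between 14.9% and 18.2% in TKO. Since the SFRP4 start is known only to the nearest kb, the side of the start on which they lie cannot be told.

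The other tile higher in TKO CP lies inside the DKK3 stretch, about 30 kb downstream of the start, at 12001001 to 12002000 on chromosome 11. Its 5 CpGs stood at 75.6% (SC), 80.3% (CME), 53.7% (CP) and 46.7% (CM) in WT, and at 78.9% (SC), 80.9% (CME) and 78.9% (CP) in TKO. All 3 TKO libraries stayed near the level of WT SC and WT CME, while WT CP and WT CM were lower. The fall from WT CME to WT CP was called (-26.5 points, adjusted p = 6.19e-13, Fisher's exact test), as in 3.38% of all tiles, and so was that from WT SC to WT CM (-28.9 points, adjusted p = 1.38e-12), as in 2.81% of all. It was the only member tile called in either comparison. Both comparisons set a library without the BS ending against 1 with it, so stage and kind of library cannot be told apart there. The comparison of TKO CP with WT CP, 25.2 points (adjusted p = 5.55e-11), does not have that difference. From TKO CME to TKO CP no member tile was called higher, as 0.772% of all tiles were.

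The test of whether the genotype difference changed from SC to CP called 1 member tile, where 5.67% of all tiles were called. It was the WIF1 tile from 65515001 to 65516000 on chromosome 12, with 29 CpGs, at 21.6% (SC), 21.5% (CME), 7.40% (CP) and 7.58% (CM) in WT, and at 13.4% (SC), 16.6% (CME) and 28.0% (CP) in TKO. With each CpG weighted equally its change was 13.3 points in place of 28.7 and it was not called. The DKK3 tile was called in its place, with 37.0 points.

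Since the CpGs of these genes lie in short clusters, runs of 3 or more shared CpGs with gaps of at most 100 bp were compared as well, a unit added after seeing the data. The members held 44 of 152963 runs. At SC 3 were called higher in TKO (all runs 5.29%), at CME 3 (5.15%) and at CP 6 (11.4%). The genotype plus stage fit with limma called 4 (4.24%). In WT, 3 runs fell from CME to CP (4.10%) and 4 from SC to CM (3.51%). Between the CME and CP libraries of TKO 0 rose (0.692%), and in 3 the genotype difference grew from SC to CP (6.37%). In all, 8 of the 44 runs (18.2%) were called in some comparison, as were 13.5% of all runs: 4 in SFRP1, 2 in DKK3 and 1 each in DKK1 and SFRP4, the SFRP4 run being the 5 CpGs of its tile.

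The runs with little methylation in WT that were called higher in TKO lay in SFRP1 and DKK1, 0.9 kb or more from the start. The share called among all runs with little methylation in WT was not counted, nor their distance from a start, so their position is a description only. About 2 kb upstream of SFRP1, 3 CpGs from 41168838 to 41168893 on chromosome 8 stood at 4.26% (SC), 1.71% (CME), 0.833% (CP) and 7.03% (CM) in WT, and at 58.0% (SC), 53.8% (CME) and 71.3% (CP) in TKO. WT and TKO did not overlap, and each of the 3 CpGs was higher in TKO at each stage. The share of all runs without overlap was not counted. The differences were 53.7 points at SC (adjusted p = 7.68e-33, Fisher's exact test), 52.1 at CME (adjusted p = 3.52e-37) and 70.4 at CP (adjusted p = 1.38e-38), and 58.8 in the genotype plus stage fit (adjusted p = 8.59e-04, limma). About 3 kb downstream of the SFRP1 start, 3 CpGs from 41164302 to 41164342 stood at 4.55% (SC), 0% (CME), 3.03% (CP) and 0% (CM) in WT, and at 26.6% (SC), 28.0% (CME) and 28.6% (CP) in TKO. The counts there were small. Each CpG had 10 reads in WT CM and 17 or 18 in WT CME, which sum to 30 and 53 over the 3 CpGs. On these sums, a level of 0 allows up to 10% and 5.66% by 3 reads (95% Wilson upper limits 11.4% and 6.76%). The CpGs are close enough for 1 read to cover all 3, so these limits can be far too low. This run was called at CME (28.0 points, adjusted p = 1.52e-05, Fisher's exact test) and in the limma fit (25.2 points, adjusted p = 0.00627).

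Between these flanks the SFRP1 start was almost unmethylated in both genotypes. Its 3 runs there, with 28, 17 and 48 CpGs from 41165859 to 41167045, were at most 5.64% in any TKO library. At CP the run of 48 CpGs was at 0.0599% in WT (8353 reads summed over CpGs) and 1.07% in TKO (8146). DKK1, an antagonist of LRP5 and LRP6, had a like arrangement on its upstream side. Its 5 CpGs from 54073140 to 54073189, about 0.9 kb before the start, stood at 4.23% (SC), 2.75% (CME), 0% (CP) and 0% (CM) in WT, and at 41.0% (SC), 23.0% (CME) and 26.8% (CP) in TKO. The 0 levels rest on 551 reads in WT CP and 683 in WT CM, summed over the 5 CpGs. Each CpG had 110 or 111 reads in WT CP and 135 to 138 in WT CM. On the sums the 95% Wilson upper limits are 0.692% and 0.559%, where 3 reads would make 0.545% and 0.439%. These limits can be too low where 1 read covers several of the CpGs. The run was called at SC (36.7 points, adjusted p = 4.16e-47, Fisher's exact test), at CP (26.8 points, adjusted p = 5.22e-48) and in the limma fit (28.0 points, adjusted p = 0.00392). At CME the difference was 20.3 points, short of 25. In TKO SC the CpG at 54073140 kept C in all of 33 reads and the other 4 CpGs stood between 19.2% and 46.8%. The 44 CpGs next to it, from 54073488 to 54074385 and across the start, stood at 7.94% (SC), 5.16% (CME) and 4.67% (CP) in TKO.

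The runs that fell in WT lay downstream of the starts of SFRP1 and DKK3, at CpGs that were intermediate or high in stem cells. About 8 kb downstream of the SFRP1 start, 3 CpGs from 41158607 to 41158676 stood at 81.1% (SC), 84.2% (CME), 25.8% (CP) and 30.0% (CM) in WT, and at 81.6% (SC), 84.9% (CME) and 90.1% (CP) in TKO. WT CP and WT CM lay far below the other 5 libraries, which lay close together. The fall from WT CME to WT CP was -58.4 points (adjusted p = 1.17e-37, Fisher's exact test), or -31.7 on minus strand reads, and TKO CP lay 64.3 points above WT CP (adjusted p = 6.96e-49). The genotype difference changed by 63.8 points from SC to CP (adjusted p = 7.36e-35, z test). In WT CP the 3 CpGs stood at 3.33%, 26.3% and 62.9%, so the fall was unequal among neighbours. As for the tile, stage and kind of library cannot be told apart in the comparisons within WT.

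About 46 kb downstream of the same start, 4 CpGs from 41120939 to 41121032 stood at 85.4% (SC), 83.3% (CME), 41.2% (CP) and 46.3% (CM) in WT, and at 86.0% (SC), 87.6% (CME) and 90.7% (CP) in TKO. This fall rests largely on 1 CpG. The CpG at 41121016, with 95 of the 160 reads in WT CP, stood at 82.1% in WT SC, 20% in WT CP, 19.5% in WT CM and 90.7% in TKO CP. The other 3 were between 69.2% and 76.9% in WT CP. Summed over reads, WT CP minus WT CME was -42.0 points (adjusted p = 6.22e-16, Fisher's exact test) and TKO CP lay 49.4 points above WT CP (adjusted p = 2.46e-24). With each CpG weighted equally these differences were -26.5 and 31.2 points, both still called, and WT CM minus WT SC was -16.7 points in place of -39.1, no longer called.

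In DKK3, 3 CpGs from 12000965 to 12001015, which overlap the called tile, stood at 59.2% (SC), 63.9% (CME), 29.1% (CP) and 26.1% (CM) in WT, and at 47.7% (SC), 54.5% (CME) and 60% (CP) in TKO. They were called lower in WT at CP than at CME (-34.9 points, adjusted p = 9.55e-13, Fisher's exact test) and higher in TKO than in WT at CP (30.9 points, adjusted p = 6.96e-09), and the genotype difference changed by 42.5 points from SC to CP (adjusted p = 2.78e-08, z test). About 40 kb downstream of the start, 3 CpGs from 11990768 to 11990833 stood at 94.4% (SC), 92.4% (CME), 71.9% (CP) and 64.7% (CM) in WT, and at 88.7% (SC), 85.7% (CME) and 87.2% (CP) in TKO. They were called only between WT SC and WT CM (-29.6 points, adjusted p = 3.15e-09). The 2 clusters of 2 CpGs given next were too short for the test and were picked after their levels were seen. They had a like order of levels, and other clusters of 2 CpGs were not counted. Those at 11988526 and 11988635 stood at 67.9% (SC), 52.5% (CME), 13.4% (CP) and 11.4% (CM) in WT, and at 81.0% (SC), 74.9% (CME) and 85% (CP) in TKO. Those at 11995234 and 11995282 stood at 46.2% (SC), 49.2% (CME), 5.49% (CP) and 3.41% (CM) in WT, and at 45.6% (SC), 38.1% (CME) and 48.6% (CP) in TKO. In both clusters the later WT libraries were the lowest 2 of the 7. All of these sites lie downstream of the weakly methylated DKK3 promoter described above.

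**Figure D3:**
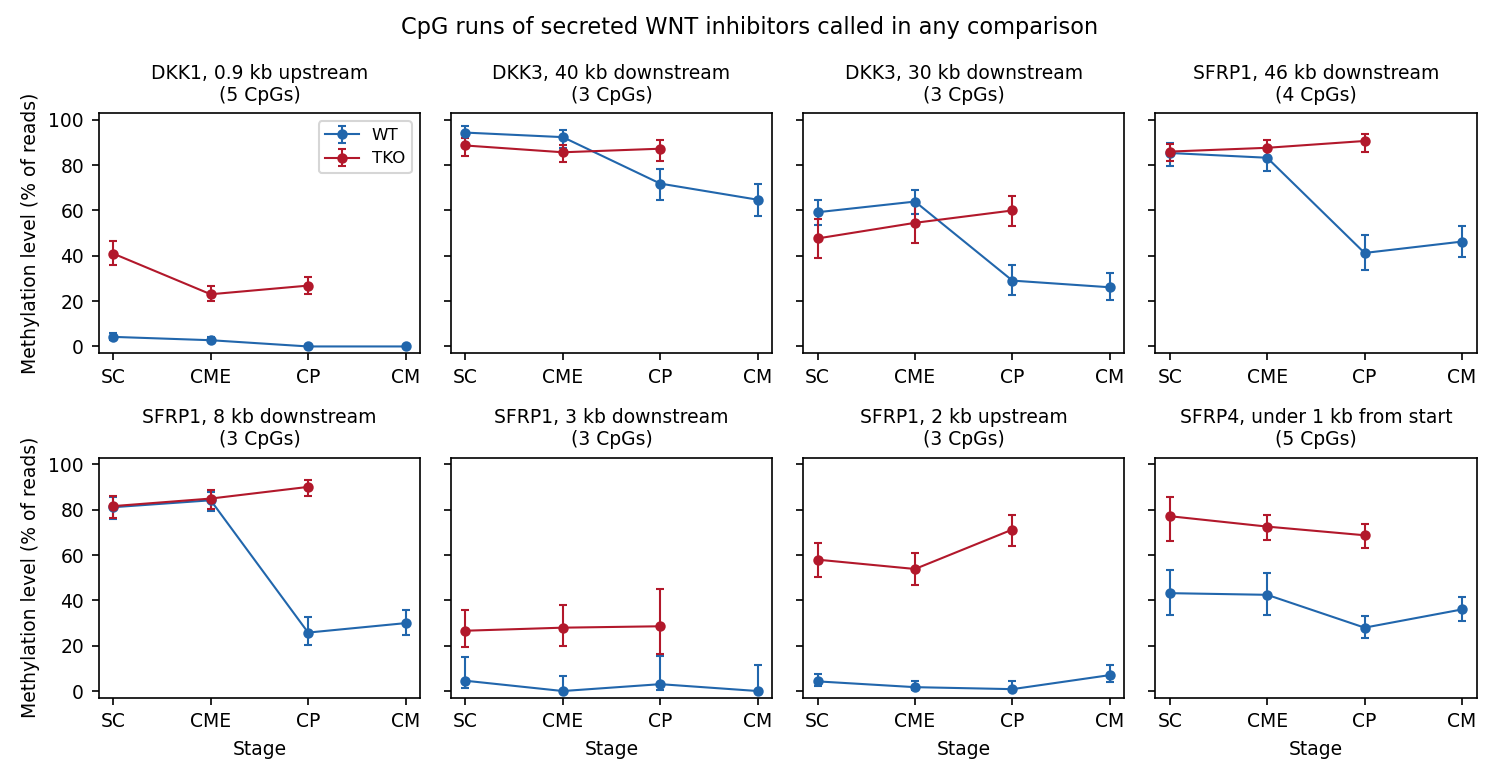
Methylation level (percent of reads, vertical axis, 0 to 100%) at each stage (horizontal axis) for the 8 CpG runs called in any comparison, in WT (blue) and TKO (red), with 95% Wilson intervals of the reads and 1 library per point. In DKK1, SFRP4 and the 2 SFRP1 runs at 2 kb upstream and 3 kb downstream the genotypes are apart from SC on, and in the other 4 runs they lie closer at SC and CME than at CP, and WT is lower at CP and CM than at SC and CME.

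Counts of single CpGs are given as a description, without a test. At 15 of the 544 CpGs (2.76%) the CP library of WT was at least 25 points lower than its CME library, against 3.78% of all shared CpGs. Of the 15, 9 were in DKK3, 5 in SFRP1 and 1 in SFRP4. In 13 of them (86.7%, against 86.0% of all such CpGs) TKO CP lay 25 points or more above WT CP, and in 14 (93.3%, against 89.2%) WT CM was within 25 points of WT CP. TKO exceeded WT by 25 points at 20 of the 544 CpGs at SC (3.68%), 25 at CME (4.60%) and 54 at CP (9.93%). Over all shared CpGs the shares were 6.74%, 6.62% and 11.5%, so those of the members were not above them. TKO lay as far below WT at 2, 2 and 0 of the CpGs, against 0.729%, 0.721% and 0.378% of all. At CP the 54 were spread over all 9 genes, with 11 each in SFRP1 and WIF1, 8 in DKK3, 6 in SFRP4, 5 in DKK1, 4 in SFRP5 and 3 each in DKK2, SFRP2 and FRZB. Between TKO CME and TKO CP, 9 CpGs (1.65%, against 1.81% of all) were higher by 25 points, 7 of them in SFRP2. Of these 7, 6 lie upstream of SFRP2, from 154711457 to 154711831. The run of 13 CpGs from 154711457 stood at 5.44% (SC), 5.27% (CME), 13.0% (CP) and 9.04% (CM) in WT, and at 0.823% (SC), 4.30% (CME) and 19.5% (CP) in TKO, and was not called. Its first 2 CpGs were also at 61.0% and 50% in WT CP.

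These genes are less methylated than the CpGs of the whole data set. In WT SC 82.2% of their CpGs were under 20% and 14.2% over 80%, against 52.4% and 38.5% of all shared CpGs. Among the CpGs under 20% in WT SC, TKO was higher by 25 points at 3.58% of the members' CpGs at SC and 7.61% at CP, against 7.98% and 10.2% of all such CpGs. Of the 44 runs, 26 (59.1%, against 23.8% of all runs) were under 20% in all 4 WT libraries. Of these, 19 (73.1%, against 82.4% of all such runs) stayed under 20% in all 3 TKO libraries, and 7 (26.9%, against 17.6%) reached 20% in at least 1. A single run, upstream of SFRP1, reached 50% (3.85%, against 9.23%). Another 16 runs (36.4%, against 60.7%) were over 80% in WT SC and WT CME. In WT CP 12 of them (75%, against 88.4% of all such runs) were still over 80% and 2, both in SFRP1, were under 50% (12.5%, against 1.32%). In TKO CP all 16 were over 80%, as were 96.9% of all such runs. These shares rest on few member runs and were not tested.

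**Figure D4:**
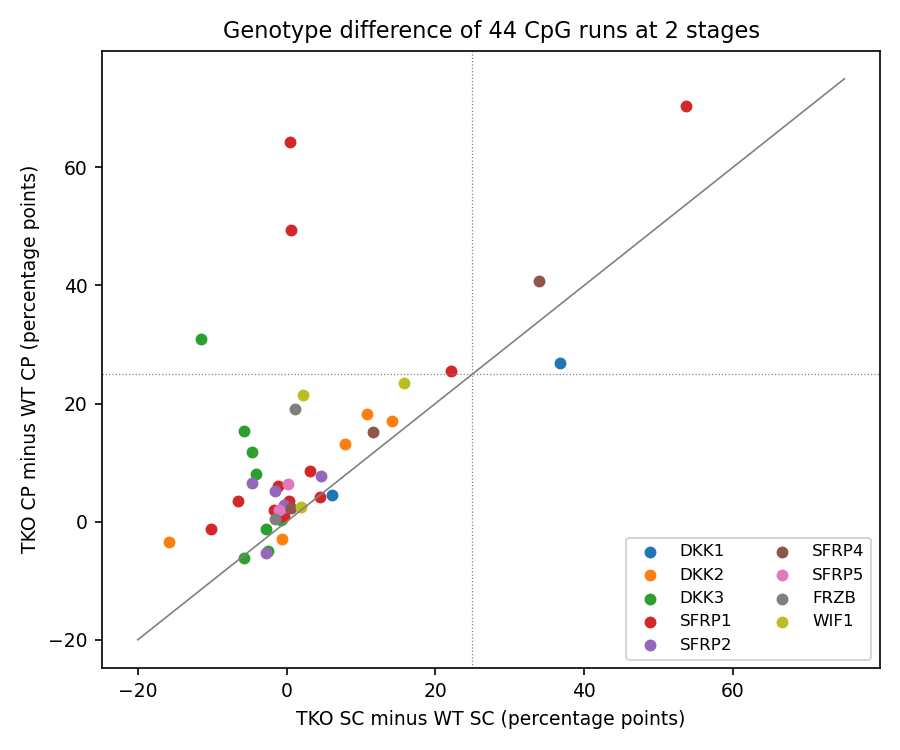
TKO minus WT difference in percentage points at SC (horizontal axis) and at CP (vertical axis) for the 44 runs, coloured by gene, with the line of equal differences and dotted lines at 25 points. Most runs lie near 0 on both axes, 2 SFRP1 runs and 1 DKK3 run stand high at CP only, and the SFRP1 run upstream of the start has the largest difference at both stages.

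Other genes of the pathway were read in the same way. Of a list of 34, made up of 14 receptors and co-receptors, 5 nuclear effectors, 9 target genes and 6 other inhibitors, 17 had a promoter that could be placed and tested (6, 4, 5 and 2). None was called higher in TKO at SC, CME or CP, beside the shares of all promoters given above. Their median difference at CP was 1.48 points, and 14 of the 17 were under 6% in all 7 libraries. The exceptions were FZD9, APCDD1 and DKKL1. FZD9, a WNT receptor, stood between 34.8% in WT SC and 46.7% in TKO CP. DKKL1, a relative of DKK3, stood at 12.8% (SC), 13.6% (CME), 12.1% (CP) and 11.4% (CM) in WT. In TKO it stood at 10.3% (SC), 11.2% (CME) and 17.6% (CP), so TKO was lower at SC and CME and higher at CP. APCDD1, a membrane inhibitor of WNT signalling, was at 3.76% in WT stem cells and 9.60% in TKO stem cells. TBXT and MIXL1, mesoderm genes downstream of WNT, did not pass 4% in any library.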

How the data were processed

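DNA methylation was measured by ERRBS in 7 libraries of HUES8 cells, grouped by title. Alignment and methylation calling were done by a core facility, per the labels' protocols, on the build hg19, per the submitters' processing notes. The sources used here do not give the aligner or the caller. Per the file headers, the deposited files give each cytosine's coverage, a read count without any sign of normalization by the authors, and the percent of reads with C and with T, also made by the authors. The lowest coverage was 10.

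Reads with C and T were recovered from coverage and percent and summed over both strands. Levels come from summed reads of CpGs with 10 or more reads in all 7 libraries. Total coverage ran from 120742115 (WT SC) to 213058905 (TKO CME). Pairs of libraries were compared per tile, promoter and run with Fisher's exact test (two-sided), Benjamini-Hochberg adjustment over all units of the genome, and a size of 25 points. The change of a difference was tested with a z test on reads, and genotype plus stage with limma on arcsine square root levels. Tests were checked on simulated reads. Promoters were placed on hg19 by matching the CpG spacing of RefSeq sequences (GRCh38.p14) to listed CpGs, with 13719 of 35116 placed. In 99.8% of them a neighbouring promoter was displaced alike, within 2 kb. Of 7 members with a sequence, 4 were placed, by a looser rule than other promoters. Members needed 5 matched CpGs and a margin of 3 over the next placement, and other promoters 8 and 4. WIF1 and FRZB would not have met the rule for other promoters. SFRP2, SFRP4, DKK2, DKK3 and SFRP1 use a start known to the nearest kb, an addition made after seeing the data, in place of the planned description over the whole stretch.

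All 10 members are named. Tiles were to be named if called between WT stages or if they had a member's largest called genotype difference, and all called runs are named. The members and lists were chosen with earlier results of these data known. Alternatives were coverage of 20, 40 points, means over CpGs, tiles shifted by 500 bp, a logit scale, promoters of 0.5 kb, runs with gaps up to 200 bp, single strands and removal of the mitochondrial share of C. The software was limma 3.58.1 in R 4.3.3, and scipy 1.17.1, numba 0.67.0, numpy 2.4.6, matplotlib 3.10.9 and pandas 2.3.3 in Python 3.11.15.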

Additional observations from a re-analysis of the deposited data

Results flagged for a closer look

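In 5 regions the TKO minus WT difference itself differed between CP and SC (z test on reads, adjusted p under 0.01, 25 points or more). The change was 63.79 points in the SFRP1 run from 41158607, 48.78 points in the SFRP1 run from 41120939 and 42.51 points in the DKK3 run from 12000965. In these 3 runs the levels of TKO SC and TKO CP lay within 13 points of each other and WT CP lay at least 30 points below WT SC. The change was 28.72 points in the WIF1 tile from 65515001 and 27.2 points in the WIF1 promoter, which share CpGs. Both fell below 25 points when each CpG was weighted equally, and the change in the SFRP1 run from 41120939 was then 29.0 points, still called. The 4 libraries compared hold no replicate, and WT SC differs from the other 3 in the ending of its description and in its mitochondrial share of C. The part of either in these changes was not tested.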

How the results depend on the processing

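No result turned its direction among those called. With 20 reads per CpG, 19 member tiles remained for the test, and 0 were called higher in TKO at SC, CME or CP or in the genotype plus stage fit, and 0 lower in WT CP than WT CME or in WT CM than WT SC. The SFRP4 tile then has none of its 5 CpGs left and the DKK3 tile 4, under the minimum of 5. Among 39 runs at 20 reads, 1 was higher at CME and 2 in the genotype plus stage fit. At 40 points, 0 tiles were higher at SC and CME and 1 at CP, and 0 were called in the other tile comparisons named here or for the change of the genotype difference. At 40 points 1 run was higher at SC, 1 at CME, 1 in the genotype plus stage fit, and 1 lower in WT CM than WT SC. The other counts were within 1.5 times the main ones under means over CpGs (17 counts), shifted tiles (8), gaps up to 200 bp (8), the logit scale (1) and promoters of 0.5 kb (1), although the single tile called for a changed genotype difference was another one under means over CpGs.

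For single runs, the DKK1 difference at CP was 24.5 points on minus strand reads, and the falls from WT SC to WT CM were -20.8 points in the SFRP1 run from 41120939 and -13.6 points in the DKK3 run from 11990768 on plus strand reads, all without a call. With 20 reads per CpG, 14 comparisons of named runs were recomputed and kept their call. Those of the SFRP4 run and of the SFRP1 runs from 41120939 and 41164302 had too few CpGs left, and single runs were not refitted with limma. Small promoter differences changed sign. At SC, WIF1 was 6.46 points higher in TKO with 0.5 kb on each side, SFRP1 stood at -0.311 with 0.5 kb, SFRP5 and FRZB at -0.966 and -0.484 on plus strand reads, and DKK3 and SFRP2 at 0.146 and 0.428 with the mitochondrial share removed. At CME, SFRP5 stood at -0.512 on plus strand reads, WIF1 at 6.34 with 0.5 kb, and DKK3 and SFRP2 at 0.128 and 0.449 with that share removed. With each CpG weighted equally WIF1 stood at 7.49 at SC and 7.38 at CME. Differences that kept their sign but moved by over 1.5 times, beside those given with the results, were below 4 points in FRZB, SFRP5, DKK3, SFRP1 and SFRP2, except 5.03 in place of 2.10 for FRZB at CME with each CpG weighted equally. SFRP4 at SC was then 9.32 in place of 6.03. With 10 reads at a CpG as the minimum, depth limits single CpGs most. No paired analysis was possible because, for a block by replicate, each group has 1 library and the labels carry no replicate numbers. The genotype plus stage fit already sets TKO beside WT within each of the 3 stages.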
